A study of Mus musculus with 8 samples.

Results

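The Wnt pathway carries signals between cells through secreted Wnt ligands, and 46 mouse genes of this pathway were followed through 5 lists of open chromatin from an Rb family triple knockout model of liver cancer. The 46 genes are 19 Wnt ligands, 12 receptors (10 Frizzled genes, Lrp5 and Lrp6), 9 genes of the R-spondin axis (Lgr4, Lgr5, Lgr6, Rspo1, Rspo2, Rspo3, Rspo4, Znrf3 and Rnf43) and 6 genes that act inside the cell (Ctnnb1, Lef1, Tcf7, Tcf7l1, Tcf7l2 and Axin2). They were listed by name for their place in the pathway, out of 21887 protein-coding genes of the annotation, and all 46 were found in it. For each gene, peaks within 1 kb of either end of the gene were counted (gene-end peaks), as were peaks in the gene body plus 10 kb on either side (locus peaks). Many of these loci also hold another gene or part of one, so a locus peak need not belong to the Wnt gene.

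In the canonical branch of the pathway a Wnt ligand binds a Frizzled receptor together with Lrp5 or Lrp6, the complex that destroys β-catenin (Ctnnb1) is switched off, and β-catenin joins the TCF and LEF factors on their target genes. R-spondins bind Lgr4, Lgr5 or Lgr6 and hold back the membrane ubiquitin ligases Znrf3 and Rnf43, which otherwise remove Frizzled receptors from the cell surface. In the liver this signal keeps hepatocytes near the central vein in their metabolic state, it takes part in growth after injury, and its genes are often mutated in liver cancer.

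The measurements are ATAC-seq, in which a transposase tags accessible DNA, of mouse liver cells sorted by flow cytometry for YFP, a marker of Cre recombination, and for the surface markers Thy1 and EpCAM. The labels name 8 samples in 5 groups, all of the triple knockout model and none of them wild type: Thy1+ CK19 (2 samples), Thy1+ Sox9 (1), EpCAM- (2), EpCAM-high CK19 (2) and EpCAM-high Sox9 (1). The promoter that drives Cre, the ages of the mice and whether animals were pooled are not stated in the labels, nor is the meaning of CK19 and Sox9 in the names, which elsewhere denote bile duct and progenitor markers. The values are 5 peak lists named Tumor Sox9, Prog-like CK19, Prog-like Sox9, EpCAM-high CK19 and EpCAM-high Sox9. The EpCAM-high names match a sample group each, while the Tumor and Prog-like names match no label, so every list is called here by the name its authors gave it.

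The lists held 39644 peaks (Tumor Sox9), 71375 (Prog-like CK19), 67855 (Prog-like Sox9), 56932 (EpCAM-high CK19) and 59454 (EpCAM-high Sox9). A deeper library gives more peaks and the read depth is unknown, so the main counts are also given at equal length, with the 39644 most significant peaks of each list. This leaves Tumor Sox9 uncut and shortens every other list. There is 1 list per condition: no difference below was tested against replicates, and intervals are exact Clopper-Pearson 95% intervals that cover counting error only. In bulk cells, fewer cells of a type and less open DNA per cell cannot be told apart. Of 12 biliary marker genes, 5 had a gene-end peak in Tumor Sox9, 3 in Prog-like CK19, 1 in the Prog-like Sox9 list and 12 in each EpCAM-high list, and Krt19 itself had no locus peak in the Tumor or Prog-like lists. Of 12 macrophage markers, 1 had one in Tumor Sox9, 12 in each Prog-like list, 1 in EpCAM-high CK19 and 2 in the EpCAM-high Sox9 list, and of 12 hepatocyte markers 9, 1, 1, 6 and 7 did in the same order of lists. Other leukocyte markers gave 1, 5, 5, 5 and 2 of 12, endothelial markers 1, 5, 5, 2 and 1, and stellate and mesenchymal markers 2, 3, 3, 4 and 4. Of the T cell genes among the leukocyte markers, Cd3e had no locus peak in any list, Cd3d was open at a gene end in both Prog-like lists and in no other, Cd8a in EpCAM-high CK19 alone and Cd4 in all 5.

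The start of transcription is shown for 4 Wnt genes, taken by the largest difference in locus peaks among those with a RefSeq window used here and with gene-end peaks that set the Prog-like lists apart from the EpCAM-high lists, or Tumor Sox9 from EpCAM-high Sox9. Each window below runs from 250 bases before to 50 after a start, as given by RefSeq for GRCm38.p6, is written 5′ to 3′ on the gene's strand, and has its CpG dinucleotides in capitals. Wnt7a (chr6:91411304-91411603, minus strand) and Wnt16 (chr6:22287977-22288276, plus strand) had peaks over or next to this window in Tumor Sox9 and both EpCAM-high lists, and none there in the Prog-like lists.
Wnt7a: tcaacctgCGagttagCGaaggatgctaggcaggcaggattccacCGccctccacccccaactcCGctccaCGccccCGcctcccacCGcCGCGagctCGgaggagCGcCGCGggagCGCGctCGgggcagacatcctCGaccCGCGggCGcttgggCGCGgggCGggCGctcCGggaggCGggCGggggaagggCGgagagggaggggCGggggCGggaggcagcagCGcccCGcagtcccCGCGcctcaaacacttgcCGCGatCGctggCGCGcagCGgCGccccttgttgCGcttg
Wnt16: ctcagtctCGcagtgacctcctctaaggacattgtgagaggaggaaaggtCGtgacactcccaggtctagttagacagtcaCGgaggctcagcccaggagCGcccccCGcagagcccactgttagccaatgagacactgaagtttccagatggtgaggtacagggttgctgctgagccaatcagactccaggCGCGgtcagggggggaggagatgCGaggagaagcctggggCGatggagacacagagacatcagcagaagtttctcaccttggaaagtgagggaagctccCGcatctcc
Wnt5b (chr6:119544298-119544597, minus strand) lay under a peak of EpCAM-high Sox9 alone, and the Wnt6 window (chr1:74771642-74771941, plus strand) was touched by 4 bases of an EpCAM-high CK19 peak alone.
Wnt5b: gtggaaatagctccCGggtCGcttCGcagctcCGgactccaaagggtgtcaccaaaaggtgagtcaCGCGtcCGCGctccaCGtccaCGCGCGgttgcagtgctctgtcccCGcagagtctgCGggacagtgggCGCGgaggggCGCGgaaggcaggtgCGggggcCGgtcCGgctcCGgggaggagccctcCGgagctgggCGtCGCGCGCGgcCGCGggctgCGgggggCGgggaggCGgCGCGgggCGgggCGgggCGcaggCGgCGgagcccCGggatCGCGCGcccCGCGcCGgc
Wnt6: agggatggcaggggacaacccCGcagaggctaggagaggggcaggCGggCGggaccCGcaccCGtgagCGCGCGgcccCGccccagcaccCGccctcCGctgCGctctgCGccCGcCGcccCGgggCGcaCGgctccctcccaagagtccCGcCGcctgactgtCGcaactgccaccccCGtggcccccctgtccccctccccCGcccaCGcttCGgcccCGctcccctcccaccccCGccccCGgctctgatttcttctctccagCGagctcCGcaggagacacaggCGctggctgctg
Axin2 (chr11:108920099-108920398, plus strand) and Lgr4 (chr2:109917397-109917696, plus strand) were added after their values were seen, as a start open in 3 lists and a start open in all 5.
Axin2: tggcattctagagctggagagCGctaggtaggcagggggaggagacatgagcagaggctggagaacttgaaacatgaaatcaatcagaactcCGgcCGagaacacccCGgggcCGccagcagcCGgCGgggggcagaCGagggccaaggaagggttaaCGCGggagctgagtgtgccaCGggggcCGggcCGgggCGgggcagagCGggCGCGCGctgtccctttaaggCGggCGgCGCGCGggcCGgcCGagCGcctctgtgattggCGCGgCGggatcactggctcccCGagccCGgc
Lgr4: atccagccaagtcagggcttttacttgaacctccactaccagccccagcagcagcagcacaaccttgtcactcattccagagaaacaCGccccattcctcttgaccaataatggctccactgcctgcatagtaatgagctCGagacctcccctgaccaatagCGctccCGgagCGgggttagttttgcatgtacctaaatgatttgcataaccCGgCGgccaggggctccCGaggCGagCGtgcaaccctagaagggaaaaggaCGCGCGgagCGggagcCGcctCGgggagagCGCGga
All 300 bases of the Wnt7a window lay in a peak in Tumor Sox9, EpCAM-high CK19 and EpCAM-high Sox9, and all 300 of the Lgr4 window did in every list. For Axin2, 159 bases were covered in Tumor Sox9, 285 in EpCAM-high CK19 and 280 in the EpCAM-high Sox9 list, against 0 in both Prog-like lists. The Wnt16 window was covered over 300 bases in EpCAM-high CK19 and 296 in the EpCAM-high Sox9 list, while the Tumor Sox9 peak began 84 bases past the start. CpG counts were 42 in the Wnt7a window, 10 in Wnt16, 47 in Wnt5b, 31 in Wnt6, 31 in Axin2 and 18 in Lgr4.

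Wnt genes were open at a gene end more often in the EpCAM-high lists than in the others. A gene-end peak was present at 24 of 46 members in Tumor Sox9 (52.2%, interval 36.9 to 67.1%), 23 in Prog-like CK19 (50%, 34.9 to 65.1%), 18 in the Prog-like Sox9 list (39.1%, 25.1 to 54.6%), 31 in EpCAM-high CK19 and 31 in the EpCAM-high Sox9 list (67.4% each, 52.0 to 80.5%). Over all protein-coding genes the shares were 51.1% in Tumor Sox9, 57.4% in Prog-like CK19, 54.4% in the Prog-like Sox9 list, 57.8% in EpCAM-high CK19 and 57.7% in the EpCAM-high Sox9 list. The Tumor Sox9 share of the Wnt genes thus stood next to that of all genes, the Prog-like shares below it and the EpCAM-high shares above it, but with the lists as deposited the value of all genes lay inside the interval of the Wnt genes in every list, and the 5 intervals overlap. At equal length the count of members was 24 in Tumor Sox9, 14 in Prog-like CK19, 14 in the Prog-like Sox9 list, 29 in EpCAM-high CK19 and 26 in the EpCAM-high Sox9 list, beside 51.1%, 48.1%, 45.9%, 53.2% and 51.1% of all genes in the same order. The share of each Prog-like list was then 30.4% (17.7 to 45.8%), against 63.0% in EpCAM-high CK19 (47.5 to 76.8%) and 56.5% in the EpCAM-high Sox9 list (41.1 to 71.1%). The values of all genes at equal length, 48.1% in Prog-like CK19 and 45.9% in the Prog-like Sox9 list, lay above the upper limit of the Prog-like interval.

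**Figure D1:**
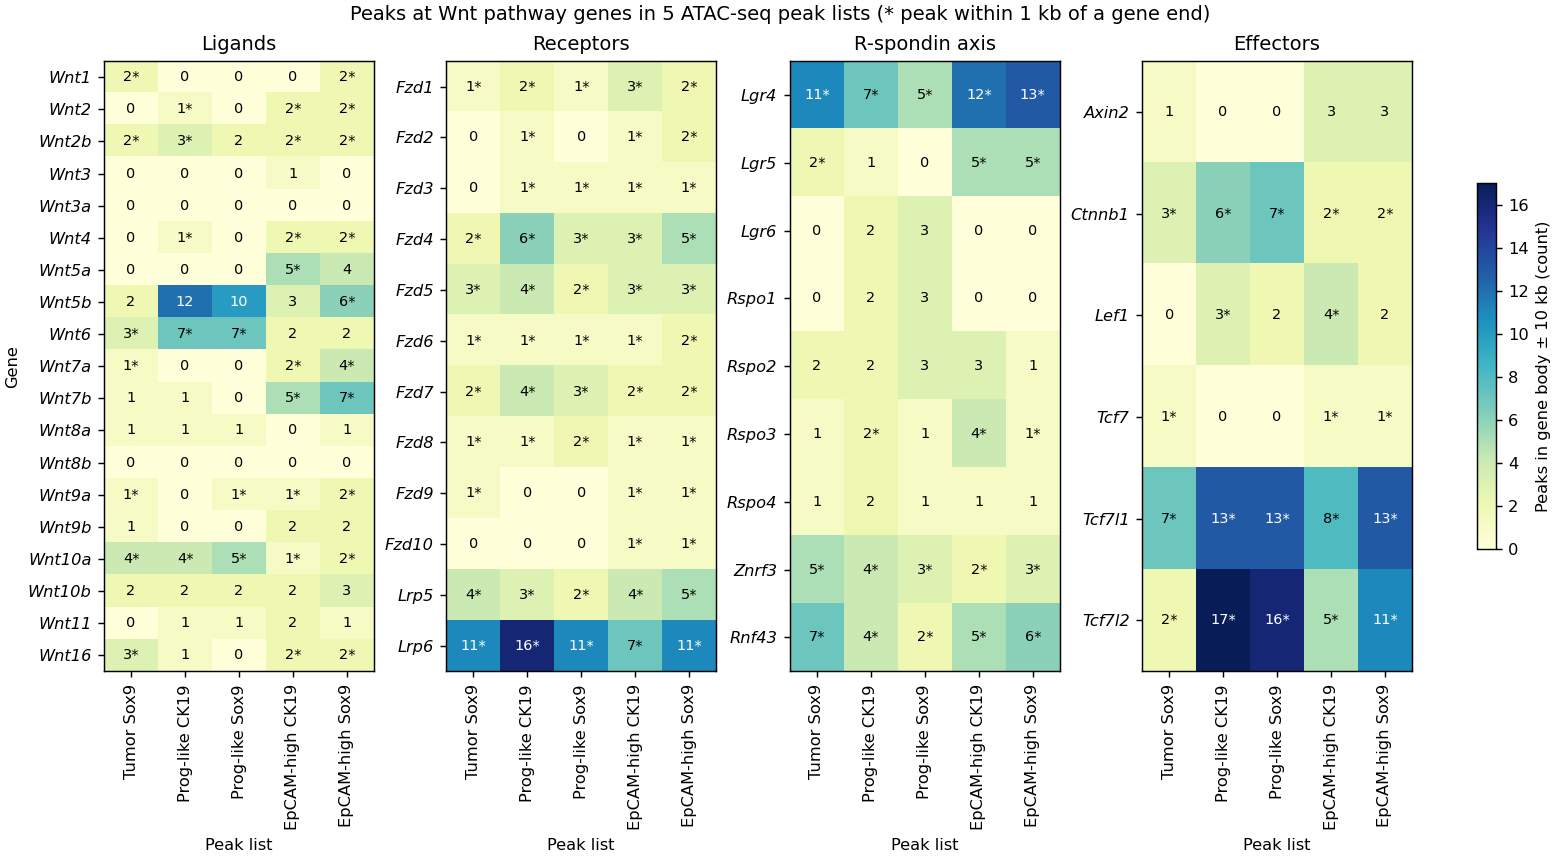
Number of peaks in the gene body plus 10 kb on either side for each of the 46 Wnt genes (rows, grouped by role) in each of the 5 peak lists (columns), on a colour scale of counts; an asterisk marks a peak within 1 kb of a gene end. Wnt7b, Lgr5 and Axin2 hold more peaks in the EpCAM-high lists than in the Prog-like lists, whereas Wnt5b, Wnt6, Ctnnb1 and Tcf7l2 hold up to 12, 7, 7 and 17 peaks in a Prog-like list.

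Sorted by the lists that hold a gene-end peak, 7 members had one in both EpCAM-high lists and in neither Prog-like list: the ligands Wnt7a, Wnt7b and Wnt16, the receptors Fzd9 and Fzd10, the R-spondin receptor Lgr5 and the nuclear factor Tcf7. That is 15.2% of the Wnt genes, against 5.03% of all genes. The opposite pattern, both Prog-like lists and neither EpCAM-high list, held for 1 member, Wnt6, against 4.23% of all genes. A gene-end peak in all 5 lists was found at 15 members (32.6%, against 44.2% of all genes), of which 8 are receptors. No list had one at 12 members (26.1%, against 32.4% of all genes): Wnt3, Wnt3a, Wnt8a, Wnt8b, Wnt9b, Wnt10b, Wnt11, Lgr6, Rspo1, Rspo2, Rspo4 and Axin2. Fzd3 had one in the 4 lists other than Tumor Sox9, and the remaining 10 members (Wnt1, Wnt2, Wnt2b, Wnt4, Wnt5a, Wnt5b, Wnt9a, Fzd2, Rspo3 and Lef1) had mixed patterns. At equal length 14 members (30.4%, against 7.5% of all genes) were open at a gene end in both EpCAM-high lists and neither Prog-like list, and 2 members, Wnt6 and Lrp5 (against 3.18% of all genes), showed the opposite. All 5 lists then had one at 11 members (23.9%, against 38.6% of all genes) and no list at 13 (28.3%, against 37.7%). The EpCAM-high gene-end peaks that Lrp5 had as deposited outranked only 27.1% of EpCAM-high CK19 and 30.5% of the EpCAM-high Sox9 list.

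Among the ligands, gene-end peaks were less frequent than over all genes in every list. They stood at 7 of 19 ligands in Tumor Sox9, 5 in Prog-like CK19, 3 in the Prog-like Sox9 list, 9 in EpCAM-high CK19 and 10 in the EpCAM-high Sox9 list, and at equal length at 7, 1, 1, 8 and 6 ligands in the same order. As deposited that is 36.8%, 26.3%, 15.8%, 47.4% and 52.6%, beside 51.1%, 57.4%, 54.4%, 57.8% and 57.7% of all genes. At equal length it is 36.8%, 5.26%, 5.26%, 42.1% and 31.6%, beside 51.1%, 48.1%, 45.9%, 53.2% and 51.1%. As deposited, the ligand interval held the value of all genes in Tumor Sox9 (16.3 to 61.6%), EpCAM-high CK19 (24.4 to 71.1%) and EpCAM-high Sox9 (28.9 to 75.6%). It left that value out only in Prog-like CK19 (9.15 to 51.2%) and Prog-like Sox9 (3.38 to 39.6%). At equal length too, only the Prog-like intervals (0.133 to 26.0% each) left it out. The EpCAM-high lists had the most as deposited, but at equal length Tumor Sox9 stood above EpCAM-high Sox9. The 1 ligand left in each Prog-like list at equal length was Wnt6. Wnt3a, a ligand widely used to switch on β-catenin in culture, and Wnt8b had no locus peak in any list.

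Wnt7b, a ligand that acts in epithelial development, showed the widest gap of any ligand in favour of the EpCAM-high lists. Its locus (gene ID 22422, chr15:85535437-85581821) held 1 peak in Tumor Sox9, 1 in Prog-like CK19, 0 in the Prog-like Sox9 list, 5 in EpCAM-high CK19 and 7 in the EpCAM-high Sox9 list. The 5 peaks of EpCAM-high CK19 each overlapped a peak of EpCAM-high Sox9, at chr15:85534148-85534641, chr15:85537970-85538566, chr15:85544448-85544785, chr15:85580274-85581387 and chr15:85581584-85582042, and none of these regions held a Tumor or Prog-like peak. The first of them lies next to the lower end of the gene and the last 2 at its upper end. The only Tumor Sox9 peak and the only Prog-like CK19 peak shared another region, chr15:85583284-85583751, beyond the upper end. At equal length the locus held 1 peak in Tumor Sox9, 0 in both Prog-like lists, 3 in EpCAM-high CK19 and 4 in the EpCAM-high Sox9 list.

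Wnt7a, the paralogue of Wnt7b, had 1 locus peak in Tumor Sox9, 0 in both Prog-like lists, 2 in EpCAM-high CK19 and 4 in the EpCAM-high Sox9 list, and at equal length it lost 1 peak, in EpCAM-high Sox9. Wnt16, a ligand best known from bone and blood stem cell development, had 3, 1, 0, 2 and 2 in the order Tumor Sox9, Prog-like CK19, Prog-like Sox9, EpCAM-high CK19 and EpCAM-high Sox9. Every list but Prog-like Sox9 had a peak at chr6:22280029-22281185, which lies outside Wnt16 in a locus shared with the gene Fam3c. The gene-end peak of Wnt7a covered the start of transcription in Tumor Sox9 and both EpCAM-high lists, and that of Wnt16 covered it in the EpCAM-high lists and lay just past it in Tumor Sox9. Wnt2 and Wnt4 differed from them in having no Tumor Sox9 peak at all. Wnt2, which liver endothelial cells secrete, had 0 locus peaks in Tumor Sox9, 1 in Prog-like CK19, 0 in the Prog-like Sox9 list and 2 in each EpCAM-high list, and Wnt4 had the same counts. The single Prog-like CK19 peak of Wnt4 lay past the downstream end, whereas the EpCAM-high peaks lay upstream of the start, with summits at position -419 in EpCAM-high CK19 and -391 in the EpCAM-high Sox9 list.

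Wnt5b and Wnt6 held most of their peaks in the Prog-like lists. Wnt5b, a ligand of the β-catenin-independent branch, had the most locus peaks of the ligands when the 5 lists are summed: 2 in Tumor Sox9, 12 in Prog-like CK19, 10 in the Prog-like Sox9 list, 3 in EpCAM-high CK19 and 6 in the EpCAM-high Sox9 list. Its locus held 5 regions with peaks of both Prog-like lists and no EpCAM-high peak, and none with the reverse, yet its only gene-end peak was that of EpCAM-high Sox9 at its first-listed start of transcription, where the predicted gene Gm52875 also ends. That peak outranked only 12.2% of its list by the authors' −log10 q, which here only ranks peaks within a list, and was absent at equal length. At equal length Wnt5b had 2, 3, 5, 3 and 3 locus peaks in Tumor Sox9, Prog-like CK19, Prog-like Sox9, EpCAM-high CK19 and EpCAM-high Sox9, so most of the gap came from the lower-ranked peaks of the longer lists.

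Wnt6, a ligand expressed in surface epithelia, lies just upstream of Wnt10a on chromosome 1. Its locus held 3 peaks in Tumor Sox9, 7 in Prog-like CK19, 7 in the Prog-like Sox9 list, 2 in EpCAM-high CK19 and 2 in the EpCAM-high Sox9 list, and 3, 3, 4, 1 and 1 at equal length. The gene-end peak shared by the Tumor and Prog-like lists (chr1:74784151-74784714) stood at the downstream end, with summits 12580 bases past the start in Tumor Sox9, 12725 in Prog-like CK19 and 12704 in the Prog-like Sox9 list. This region also falls within 10 kb of Wnt10a and counts for both loci. Near the start of Wnt6 only EpCAM-high CK19 had a peak within 1 kb, and all 5 lists had one at chr1:74773005-74773503, inside the gene. Wnt10a was the only ligand with a gene-end peak in all 5 lists, with 4, 4, 5, 1 and 2 locus peaks in the same order.

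The other ligands gave smaller contrasts. Wnt5a had 5 locus peaks in EpCAM-high CK19 and 4 in the EpCAM-high Sox9 list, against 0 in the other 3 lists, and only the EpCAM-high CK19 list had one at a gene end. The region chr14:28505432-28506033 held a peak of both lists, but only that of EpCAM-high CK19 reached the 1 kb window. Wnt1, the first mammalian Wnt gene to be identified, had 2 in Tumor Sox9 and 2 in the EpCAM-high Sox9 list and none elsewhere, and the EpCAM-high pair was absent at equal length. Wnt9b, another ligand of liver endothelial cells, had 1 peak in Tumor Sox9, 0 in both Prog-like lists and 2 in each EpCAM-high list. Wnt2b, Wnt8a, Wnt9a, Wnt10b and Wnt11 ranged over 0 to 3 locus peaks, and Wnt3 had 1 peak, in EpCAM-high CK19.

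**Figure D2:**
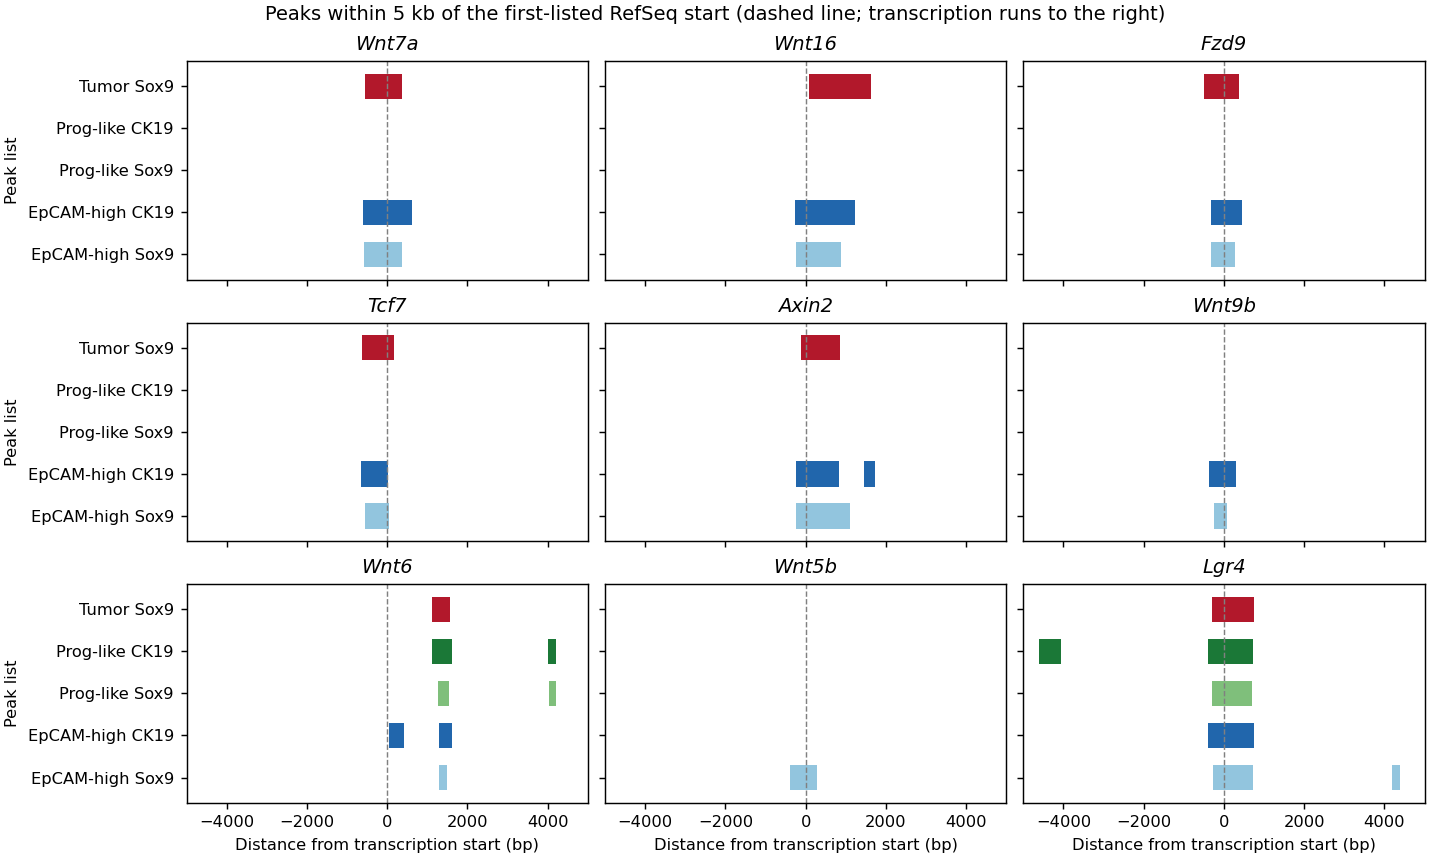
Peaks (bars, to scale) within 5000 bp of the first-listed RefSeq start of transcription (dashed line at 0, transcription to the right) for 9 Wnt genes in the 5 lists. Wnt7a, Fzd9, Tcf7 and Axin2 have a bar at the start in Tumor Sox9 and both EpCAM-high lists and none in the Prog-like lists, Wnt16 does too but for a Tumor Sox9 bar that begins 84 bp past the start, Wnt9b has one in the EpCAM-high lists alone, and Lgr4 has one in all 5.

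The receptors were the most widely open group. Gene-end peaks stood at 9 of 12 receptors in Tumor Sox9, 10 in Prog-like CK19, 9 in the Prog-like Sox9 list and all 12 in each EpCAM-high list, and at 9, 8, 8, 11 and 11 at equal length. As deposited that is 75%, 83.3%, 75%, 100% and 100%, beside 51.1%, 57.4%, 54.4%, 57.8% and 57.7% of all genes. At equal length it is 75%, 66.7%, 66.7%, 91.7% and 91.7%, beside 51.1%, 48.1%, 45.9%, 53.2% and 51.1%. Fzd1, Fzd4, Fzd5, Fzd6, Fzd7, Fzd8, Lrp5 and Lrp6 had one in all 5 lists. Fzd9 had 1 locus peak in Tumor Sox9, 0 in both Prog-like lists and 1 in each EpCAM-high list, all at its start. Fzd10 had 0 in Tumor Sox9 and the Prog-like lists and 1 in each EpCAM-high list (chr5:128600598-128601559), with summits upstream of the start, at position -213 in EpCAM-high CK19 and -54 in the EpCAM-high Sox9 list.

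Fzd2 and Fzd3 were the other receptors without a Tumor Sox9 peak. Fzd2 had 0 locus peaks in Tumor Sox9, 1 in Prog-like CK19, 0 in the Prog-like Sox9 list, 1 in EpCAM-high CK19 and 2 in the EpCAM-high Sox9 list, and its Prog-like CK19 peak outranked only 5.28% of that list. Fzd3 had 0 in Tumor Sox9 and 1 in every other list, and these peaks ranked higher: above 65.5% of Prog-like CK19, 65.0% of Prog-like Sox9, 67.6% of EpCAM-high CK19 and 80.9% of EpCAM-high Sox9. Lrp6, the co-receptor that recruits Axin to the membrane, had the most locus peaks of the receptors when the 5 lists are summed: 11 in Tumor Sox9, 16 in Prog-like CK19, 11 in the Prog-like Sox9 list, 7 in EpCAM-high CK19 and 11 in the EpCAM-high Sox9 list. Its 27 regions divided into 4 with peaks of both EpCAM-high lists and no Prog-like peak, each of them also in Tumor Sox9, and 8 with peaks of both Prog-like lists and no EpCAM-high peak, 1 of them in Tumor Sox9. Only 1 region of Lrp6 was open in all 5 lists, and at equal length its peaks numbered 11, 8, 8, 6 and 6 in the same order of lists. Fzd4, whose start lies beside an end of Tmem135, carried a gene-end peak above 99.4% of peaks in Tumor Sox9, 97.4% in Prog-like CK19, 98.1% in the Prog-like Sox9 list, 97.7% in EpCAM-high CK19 and 98.8% in the EpCAM-high Sox9 list.

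In the R-spondin axis the receptor genes Lgr4, Lgr5 and Lgr6 had different patterns. Lgr4 was open at its start everywhere, with a peak above 99.8% of the other peaks by −log10 q in Tumor Sox9, 99.8% in Prog-like CK19, 99.8% in the Prog-like Sox9 list, 99.9% in EpCAM-high CK19 and 99.95% in the EpCAM-high Sox9 list. Its locus held 11 peaks in Tumor Sox9, 7 in Prog-like CK19, 5 in the Prog-like Sox9 list, 12 in EpCAM-high CK19 and 13 in the EpCAM-high Sox9 list, and 11, 5, 4, 10 and 12 at equal length. So the start was open throughout, while the locus as a whole held more peaks in the Tumor and EpCAM-high lists. Of its 21 regions, 4 held a peak in all 5 lists, and 4 held peaks of both EpCAM-high lists and no Prog-like peak, 3 of them with Tumor Sox9.

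Lgr5, a marker of stem cells in the intestine and of dividing cells in injured liver, was open in the Tumor and EpCAM-high lists. Its locus (gene ID 14160, chr10:115450314-115587780) held 2 peaks in Tumor Sox9, 1 in Prog-like CK19, 0 in the Prog-like Sox9 list, 5 in EpCAM-high CK19 and 5 in the EpCAM-high Sox9 list. Both Tumor Sox9 peaks lay in regions that the EpCAM-high lists also held, at the upper gene end (chr10:115586137-115587932) and in the gene body at chr10:115561083-115561621. The regions chr10:115484508-115484907 and chr10:115505370-115506225 were open in both EpCAM-high lists only. The gene-end peak had nearly the same rank in its 3 lists, above 75.4% of peaks in Tumor Sox9, 75.2% in EpCAM-high CK19 and 74.5% in the EpCAM-high Sox9 list. The single Prog-like CK19 peak overlapped none of these regions and was absent at equal length.

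Lgr6, the third R-spondin receptor, and Rspo1, a ligand of these receptors, had the opposite pattern, each with 0 locus peaks in Tumor Sox9, 2 in Prog-like CK19, 3 in the Prog-like Sox9 list and 0 in both EpCAM-high lists. None of these peaks lay at a gene end, and at equal length Lgr6 had none and Rspo1 had 1 in each Prog-like list. Rspo3, the R-spondin of the central vein region in liver, had 1 locus peak in Tumor Sox9, 2 in Prog-like CK19, 1 in the Prog-like Sox9 list, 4 in EpCAM-high CK19 and 1 in the EpCAM-high Sox9 list, and was open at a gene end in Prog-like CK19 and the EpCAM-high lists. Rspo2 and Rspo4 had 1 to 3 locus peaks and no gene-end peak.

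The ubiquitin ligase genes Znrf3 and Rnf43, negative regulators of the pathway, were open at a gene end in every list as deposited. At equal length Rnf43 kept its gene-end peak in Tumor Sox9 and the EpCAM-high lists and had none in the Prog-like lists. Znrf3 had 5 locus peaks in Tumor Sox9, 4 in Prog-like CK19, 3 in the Prog-like Sox9 list, 2 in EpCAM-high CK19 and 3 in the EpCAM-high Sox9 list, and 4 of its 11 regions held a Tumor Sox9 peak and no other. Rnf43 had 7, 4, 2, 5 and 6 in the same order. At equal length Znrf3 had 5, 1, 1, 1 and 1 and Rnf43 had 7, 1, 1, 5 and 5. Although Tumor Sox9 is the shortest list, it had the most locus peaks of any list at both genes. Counted over all 9 genes of the axis, gene-end peaks stood at 4 in Tumor Sox9, 4 in Prog-like CK19, 3 in the Prog-like Sox9 list, 5 in EpCAM-high CK19 and 5 in the EpCAM-high Sox9 list, and at equal length at 4, 2, 2, 5 and 5. As deposited that is 44.4%, 44.4%, 33.3%, 55.6% and 55.6%, beside 51.1%, 57.4%, 54.4%, 57.8% and 57.7% of all genes. At equal length it is 44.4%, 22.2%, 22.2%, 55.6% and 55.6%, beside 51.1%, 48.1%, 45.9%, 53.2% and 51.1%.

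**Figure D3:**
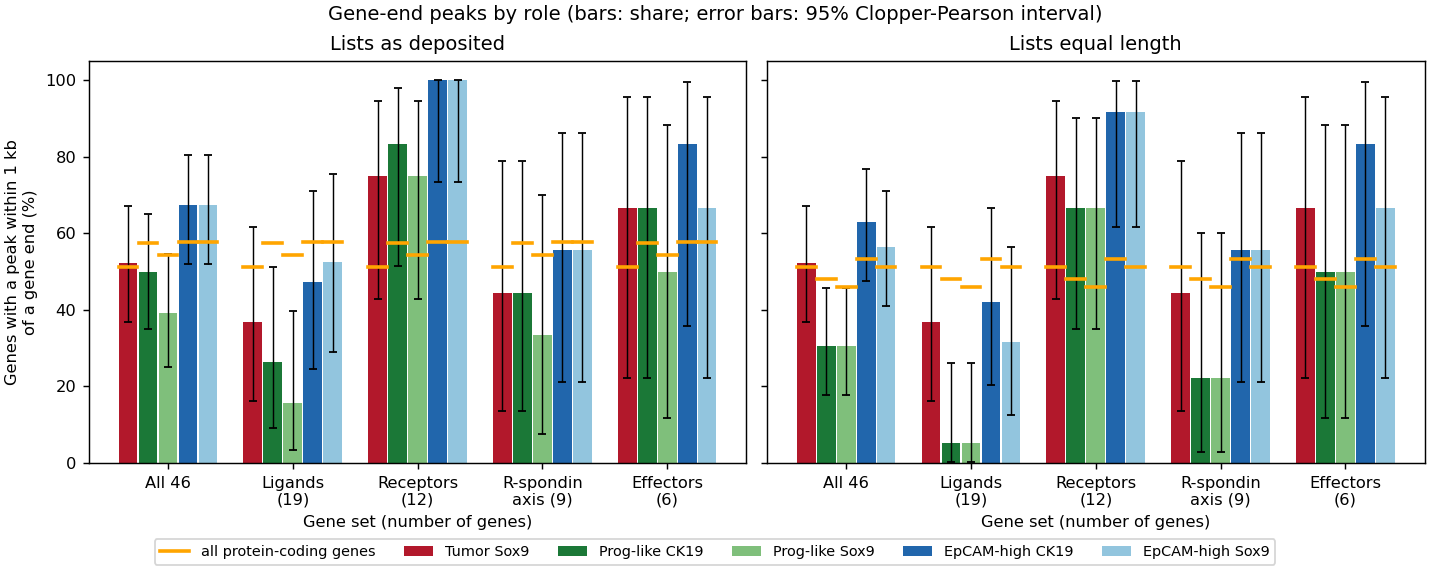
Share of genes (%) with a peak within 1 kb of a gene end, for all 46 Wnt genes and for each role, in lists as deposited (left) and at equal length (right); bars are the 5 lists, error bars exact 95% Clopper-Pearson intervals, and orange lines all protein-coding genes. Ligands lie under the orange line in every list, receptors lie above it, and at equal length the Prog-like bars are the lowest in every role. Error bars leave out the orange line at ligands in the Prog-like lists only and at receptors in the EpCAM-high lists only.

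Of the effector genes, 3 were open everywhere, Tcf7 and Axin2 were open in the Tumor and EpCAM-high lists, and Lef1 had a mixed pattern. Gene-end peaks stood at 4 of 6 in Tumor Sox9, 4 in Prog-like CK19, 3 in the Prog-like Sox9 list, 5 in EpCAM-high CK19 and 4 in the EpCAM-high Sox9 list. In this order that is 66.7%, 66.7%, 50%, 83.3% and 66.7%, beside 51.1%, 57.4%, 54.4%, 57.8% and 57.7% of all genes. Ctnnb1, which encodes β-catenin, Tcf7l1, which mostly represses target genes, and Tcf7l2, a TCF factor of gut and liver, had one in all 5 lists. Tcf7, which encodes TCF1, had 1 locus peak in Tumor Sox9, 0 in both Prog-like lists and 1 in each EpCAM-high list, in a single region at its start (chr11:52282844-52283664). Lef1, a DNA-binding partner of β-catenin, had 0 locus peaks in Tumor Sox9, 3 in Prog-like CK19, 2 in the Prog-like Sox9 list, 4 in EpCAM-high CK19 and 2 in the EpCAM-high Sox9 list.

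Axin2, a scaffold of the destruction complex that β-catenin itself switches on, had 1 locus peak in Tumor Sox9, 0 in both Prog-like lists and 3 in each EpCAM-high list. The peak at its start, chr11:108920114-108921456 after merging, was common to the Tumor and EpCAM-high lists. It does not count as a gene-end peak because the annotated gene begins further upstream than this start.

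Tcf7l2 and Ctnnb1 had more locus peaks in the Prog-like lists. Tcf7l2 (chr19:55741797-55933659) held 2 peaks in Tumor Sox9, 17 in Prog-like CK19, 16 in the Prog-like Sox9 list, 5 in EpCAM-high CK19 and 11 in the EpCAM-high Sox9 list, but 2, 6, 4, 5 and 8 at equal length. The excess of the Prog-like lists at Tcf7l2 was therefore carried by lower-ranked peaks. Ctnnb1 held 3, 6, 7, 2 and 2 in the same order, and 3, 2, 3, 2 and 1 at equal length. Tcf7l1 had the most locus peaks of the effectors when the 5 lists are summed, with 7 in Tumor Sox9, 13 in Prog-like CK19, 13 in the Prog-like Sox9 list, 8 in EpCAM-high CK19 and 13 in the EpCAM-high Sox9 list, and 7, 10, 9, 6 and 9 at equal length. Similar totals at Tcf7l1 covered different regions: 9 regions had peaks of both Prog-like lists and no EpCAM-high peak, 5 had peaks of both EpCAM-high lists and no Prog-like peak, and 3 were open in all 5 lists.

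Where the strand is known, peaks can be placed at the start of transcription alone. This was so for 32 members, among which 18 had a peak within 1 kb of a start in Tumor Sox9 (56.2%), 13 in Prog-like CK19 (40.6%), 11 in the Prog-like Sox9 list (34.4%), 23 in EpCAM-high CK19 (71.9%) and 24 in the EpCAM-high Sox9 list (75%). Over 17492 genes with a known start the shares were 52.8% in Tumor Sox9, 58% in Prog-like CK19, 55.3% in the Prog-like Sox9 list, 59.4% in EpCAM-high CK19 and 59.6% in the EpCAM-high Sox9 list. At equal length 18, 8, 8, 20 and 19 members had such a peak in the same order, beside 52.8%, 49.2%, 47.3%, 55.1% and 53.2% of all genes. Starts of 9 members (28.1%, against 4.92% of all genes) were open in both EpCAM-high lists and neither Prog-like list: Wnt2, Wnt4, Wnt7a, Wnt9b, Wnt16, Fzd9, Fzd10, Axin2 and Tcf7. Of these, 5 had a peak there in Tumor Sox9 too. No member showed the reverse, against 3.17% of all genes. At equal length the pattern held for 10 members (31.2%, against 7.41% of all genes), with Wnt2b, Rnf43 and Lef1 added and Wnt2 and Wnt4 dropped, and the reverse for none (2.44% of all genes). Wnt6 therefore drops out of the Prog-like pattern when its downstream end is set aside.

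Set against each other, the lists differed at named Wnt genes as follows. Between Prog-like CK19 and EpCAM-high CK19, 1 member (Wnt6; 6.5% of all genes) had a gene-end peak only in Prog-like CK19 and 9 (6.94% of all genes) only in EpCAM-high CK19: Wnt5a, Wnt7a, Wnt7b, Wnt9a, Wnt16, Fzd9, Fzd10, Lgr5 and Tcf7. Between Prog-like Sox9 and EpCAM-high Sox9, 1 member (Wnt6 again; 5.67% of all genes) stood on the Prog-like side and 14 (8.98% of all genes) on the EpCAM-high side. These 14 were Wnt1, Wnt2, Wnt2b, Wnt4, Wnt5b, Wnt7a, Wnt7b, Wnt16, Fzd2, Fzd9, Fzd10, Lgr5, Rspo3 and Tcf7. Counted by members, locus peaks ran the same way: 16 members had more in Prog-like CK19 and 22 had more in EpCAM-high CK19, whereas 42.5% of all genes had more in Prog-like CK19 and 20.6% more in EpCAM-high CK19. Summed over the members they did not, with a sum of 138 in Prog-like CK19 against 117 in EpCAM-high CK19, although at equal length the sums were 60 and 89. In the Sox9 lists 10 members had more in Prog-like Sox9 and 23 more in EpCAM-high Sox9, against 36.4% and 25.1% of all genes, and the sums were 114 and 142. At equal length the CK19 lists differed at 2 members on the Prog-like side (4.94% of all genes) and 17 on the EpCAM-high side (10.1%), and the Sox9 lists at 2 (4.95%) and 14 (10.2%). The 2 on the Prog-like side were Wnt6 and Lrp5 in both comparisons, and the EpCAM-high side gained Wnt10a, Fzd6 and Rnf43 in both. In the CK19 lists that side also gained Wnt2, Wnt2b, Wnt4, Fzd2, Rspo3 and Lef1 and lost Wnt9a. In the Sox9 lists it lost Wnt1, Wnt4 and Wnt5b. Beside these Wnt differences, the 12 macrophage markers held 99 locus peaks in all in Prog-like CK19 and 4 in EpCAM-high CK19, and 93 in Prog-like Sox9 and 11 in EpCAM-high Sox9. The 12 biliary markers held 21 in Prog-like CK19 and 66 in EpCAM-high CK19, and 13 in Prog-like Sox9 and 82 in EpCAM-high Sox9. The part of these cell type markers in the Wnt differences was not tested.

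The comparisons of Tumor Sox9 use the same Sox9 lists as the one above. Against EpCAM-high Sox9, 1 member (Wnt6; 2.57% of all genes) had a gene-end peak only in Tumor Sox9 and 8 (9.17% of all genes) only in EpCAM-high Sox9: Wnt2, Wnt4, Wnt5b, Wnt7b, Fzd2, Fzd3, Fzd10 and Rspo3. At equal length these counts were 4 (Wnt1, Wnt6, Wnt9a and Lrp5; 5.79% of all genes) and 6 (5.77%), so the gap narrowed once the lists had 1 length. Against Prog-like Sox9, 7 members (5.4% of all genes) had a gene-end peak only in Tumor Sox9, namely Wnt1, Wnt2b, Wnt7a, Wnt16, Fzd9, Lgr5 and Tcf7, and 1 (Fzd3; 8.69% of all genes) only in Prog-like Sox9. At equal length these became 11 (10.1% of all genes) and 1 (4.85%). Hepatocyte markers with a gene-end peak numbered 9 of 12 in Tumor Sox9, 1 in the Prog-like Sox9 list and 7 in the EpCAM-high Sox9 list, and their part was not tested.

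The CK19 and Sox9 lists of a kind shared more regions at Wnt loci, 63.3% between the Prog-like lists (interval 54.9 to 71.1%; all loci 77.0%) and 58.5% between the EpCAM-high lists (all loci 59.0%). Between Prog-like CK19 and Prog-like Sox9, 6 members (3.68% of all genes) had a gene-end peak only in the CK19 list, namely Wnt2, Wnt2b, Wnt4, Fzd2, Rspo3 and Lef1, and 1 (Wnt9a; 0.704% of all genes) only in the Sox9 list. At equal length no member differed, against 2.9% and 0.722% of all genes. Between EpCAM-high CK19 and EpCAM-high Sox9, 2 (Wnt5a and Lef1; 2.99% of all genes) stood in the CK19 list only and 2 (Wnt1 and Wnt5b; 2.87% of all genes) in the Sox9 list only. At Wnt5a (chr14:28505432-28506033) and Lef1 (chr3:131110944-131112541) both EpCAM-high lists had a peak in the same region. Only the EpCAM-high CK19 peak reached the 1 kb window there. The Lef1 region also held a Prog-like Sox9 peak outside that window. At equal length 3 (Wnt4, Wnt5a and Lef1; 4.08% of all genes) stood in the CK19 list only and 0 (1.98%) in the Sox9 list only.

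Peaks of the 5 lists that overlapped were merged into 269 regions at the Wnt loci. Regions open in all 5 lists made up 27 of them (10.04%, interval 6.72 to 14.3%), against 13.7% of regions at all gene loci. Regions with peaks of both EpCAM-high lists and Tumor Sox9 and no Prog-like peak made up 21 (7.81%, 4.90 to 11.7%; all gene loci 4.65%), and those of both EpCAM-high lists and no other 31 (11.5%, 7.97 to 15.96%; 8.66%). Regions of both Prog-like lists and no other made up 51 (18.96%, 14.5 to 24.2%; 27.9%), and regions of Tumor Sox9 alone 18 (6.69%, 4.01 to 10.4%; 6.47%). For 2 of these kinds, both Prog-like alone and both EpCAM-high with Tumor Sox9, the interval of the Wnt loci left out the value of all loci. Among the 173 regions at equal length this was so for both of these kinds (both Prog-like alone 13.3%, 8.62 to 19.3%, all loci 22.3%; both EpCAM-high with Tumor Sox9 12.7%, 8.14 to 18.6%, all loci 7.92%). It was also so for all 5 lists (10.4%, 6.28 to 15.9%; all loci 16.2%) and for both EpCAM-high alone (15.03%, 10.06 to 21.2%; all loci 9.59%). Regions of Tumor Sox9 alone numbered 32 at equal length (18.5%, 13.01 to 25.1%; all loci 13.2%). Since equal length cuts every list but Tumor Sox9, part of this rise follows by construction. Regions next to each other are not independent, so these intervals are too narrow.

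**Figure D4:**
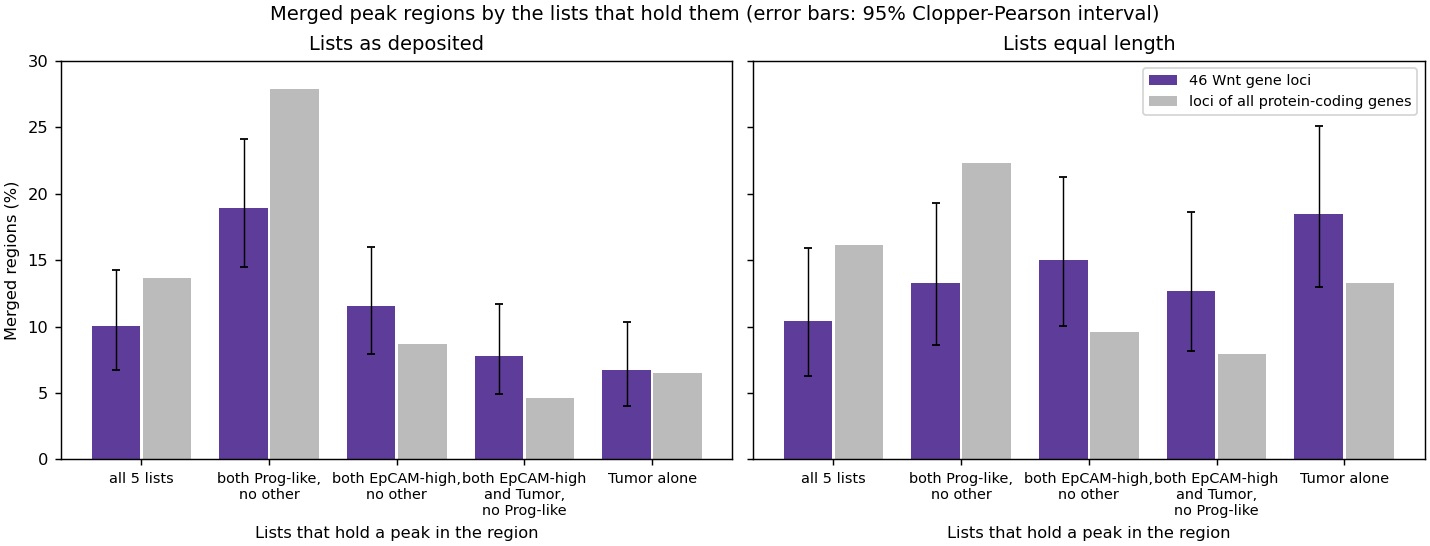
Merged peak regions by the lists that hold them, as a share (%) of all regions at the 46 Wnt loci (purple, error bars exact 95% Clopper-Pearson intervals) and at the loci of all protein-coding genes (grey), in lists as deposited (left) and at equal length (right). Regions of both Prog-like lists alone make up 18.96% at Wnt loci against 27.9% at all loci, and regions of both EpCAM-high lists and Tumor Sox9 7.81% against 4.65%.

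The regions that divided the lists were spread over many Wnt loci. Regions with peaks of both EpCAM-high lists and no Prog-like peak numbered 52 at 25 members (19.3% of the regions, 14.8 to 24.6%; all loci 13.3%), 21 of them also in Tumor Sox9. Regions with peaks of both Prog-like lists and no EpCAM-high peak numbered 55 at 18 members (20.4%, 15.8 to 25.8%; all loci 28.8%), 4 of them also in Tumor Sox9. Both kinds occurred at 9 members. At equal length they numbered 48 (27.7%; all loci 17.5%) and 26 (15.03%; all loci 23.5%). By role, with regions shared by Wnt6 and Wnt10a counted once, the EpCAM-high kind numbered 17 at ligands, 12 at receptors, 10 in the R-spondin axis and 13 at effectors, and the Prog-like kind 11, 12, 9 and 23. As shares of each role's regions these were 23.3%, 20%, 14.9% and 18.8% (all loci 13.3%), and 15.1%, 20%, 13.4% and 33.3% (all loci 28.8%). Of the 23 at effectors 18 lay at Tcf7l1 and Tcf7l2. At equal length effectors had 9 regions of the Prog-like kind (22.5%; all loci 23.5%), receptors 10 (22.2%), ligands 4 (8.89%) and the R-spondin axis 3 (6.98%). Of the regions that at least 1 list of a pair held at Wnt loci, Prog-like CK19 shared 19.6% with EpCAM-high CK19 (interval 14.5 to 25.7%; all loci 24.6%), Prog-like Sox9 19.4% with EpCAM-high Sox9 (all loci 23.2%), Tumor Sox9 38.8% with EpCAM-high Sox9 (all loci 40.1%) and Tumor Sox9 20.5% with Prog-like Sox9 (all loci 22.7%). At Wnt loci as at all loci, Tumor Sox9 shared more regions with EpCAM-high Sox9 than with Prog-like Sox9.

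The letters of the start windows were compared with those of all genes. The 42 windows of 32 members had a median GC content of 69.5%, against 56.3% in 21263 windows of all genes, and a median ratio of observed to expected CpG of 0.781 against 0.567. Windows were sorted by the lists with a peak over any of their bases, so part of a window could lie outside the peak. The 9 windows with peaks of both EpCAM-high lists and neither Prog-like list had a median GC of 76.0%. The 9 with peaks of all 4 of these lists, from 8 members, had 72.7%, and the 17 with none of them 65.7%. The other 7 windows, with mixed patterns, had the highest median, 76.7%. Motifs were searched by exact letters on both strands, and none of the 5 letter strings contains another. CTTTGAT (TCF/LEF) was found in 2 member windows (4.76%, of Wnt5b and Wnt11) and 3.22% of all windows, TGANTCA (AP-1) in 1 (2.38%, of Wnt5b) and 6.99%, and GGAATG (TEAD) in 2 (4.76%, of Wnt5b and Lgr4) and 13.6%. GTTAAT (a half-site of HNF1) was found in 0 and in 6.25% of all windows, and GGAAGT (ETS) in 6 (14.3%) and 24.8%. These shares were not adjusted for the higher GC content of the member windows, whose part in them was not tested. Of the printed windows, that of Wnt5b holds the AP-1 match and that of Lgr4 holds 2 TEAD matches, while the TCF/LEF and TEAD matches of Wnt5b lie in its other windows.

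Other genes of the pathway, from 5 further lists of 77 genes, were counted in the same way. The shares of all genes to set beside them were 51.1%, 57.4%, 54.4%, 57.8% and 57.7% as deposited. At equal length they were 51.1%, 48.1%, 45.9%, 53.2% and 51.1%. Of 15 receptors and polarity genes of the β-catenin-independent branch, 9 had a gene-end peak in Tumor Sox9, 9 in Prog-like CK19, 6 in the Prog-like Sox9 list and 14 in each EpCAM-high list, and 9, 6, 4, 13 and 13 at equal length. That is 60%, 60%, 40%, 93.3% and 93.3% as deposited, and 60%, 40%, 26.7%, 86.7% and 86.7% at equal length. Celsr1, a cadherin of planar cell polarity, had 7 locus peaks in Tumor Sox9, 2 in each Prog-like list, 8 in EpCAM-high CK19 and 7 in the EpCAM-high Sox9 list, and Vangl1, a membrane protein of the same system, had 3, 0, 0, 4 and 7. Ptk7, Ror2 and Prickle2 of this group, the antagonist gene Draxin and the co-repressor gene Tle2 were likewise open at a gene end in the EpCAM-high pair and not in the Prog-like pair. At equal length the EpCAM-high peaks there of Ptk7 were absent, those of Draxin and Tle2 were left in EpCAM-high CK19 alone, and those of Ror2 and Prickle2 were left in both lists. Of 19 Wnt target genes, 8 had a gene-end peak in Tumor Sox9, 14 in Prog-like CK19, 11 in the Prog-like Sox9 list and 16 in each EpCAM-high list, and 8, 6, 6, 15 and 14 did at equal length. That is 42.1%, 73.7%, 57.9%, 84.2% and 84.2% as deposited, and 42.1%, 31.6%, 31.6%, 78.9% and 73.7% at equal length. Among the target genes, the protease gene Mmp7 and the repressor gene Sp5 had locus peaks in the EpCAM-high lists alone (Mmp7 3 in each, Sp5 2 in EpCAM-high CK19 and 1 in the EpCAM-high Sox9 list).

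Of 13 genes of Wnt secretion and the destruction complex, 10 had a gene-end peak in Tumor Sox9, 12 in Prog-like CK19, 12 in the Prog-like Sox9 list, 11 in EpCAM-high CK19 and 12 in the EpCAM-high Sox9 list. Of 13 nuclear co-factors of β-catenin, 11 did in each list but EpCAM-high Sox9, where 12 did. At equal length both of these lists of genes gave 10 or 11 in every peak list. As shares they ranged from 76.9% to 92.3% as deposited, beside 51.1% to 57.8% of all genes. At equal length they ranged from 76.9% to 84.6%, beside 45.9% to 53.2%. Bcl9l, a co-activator that links β-catenin to Pygopus, was the only gene named from these lists that was open at a gene end in both Prog-like lists and neither EpCAM-high list, and this pattern was absent at equal length. Of 17 secreted antagonists, 5 had a gene-end peak in Tumor Sox9, 9 in Prog-like CK19, 6 in the Prog-like Sox9 list, 11 in EpCAM-high CK19 and 10 in the EpCAM-high Sox9 list, and 5, 6, 4, 7 and 8 did at equal length. As deposited that is 29.4%, 52.9%, 35.3%, 64.7% and 58.8%, beside 51.1%, 57.4%, 54.4%, 57.8% and 57.7% of all genes. At equal length it is 29.4%, 35.3%, 23.5%, 41.2% and 47.1%, beside 51.1%, 48.1%, 45.9%, 53.2% and 51.1%.

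**Figure D5:**
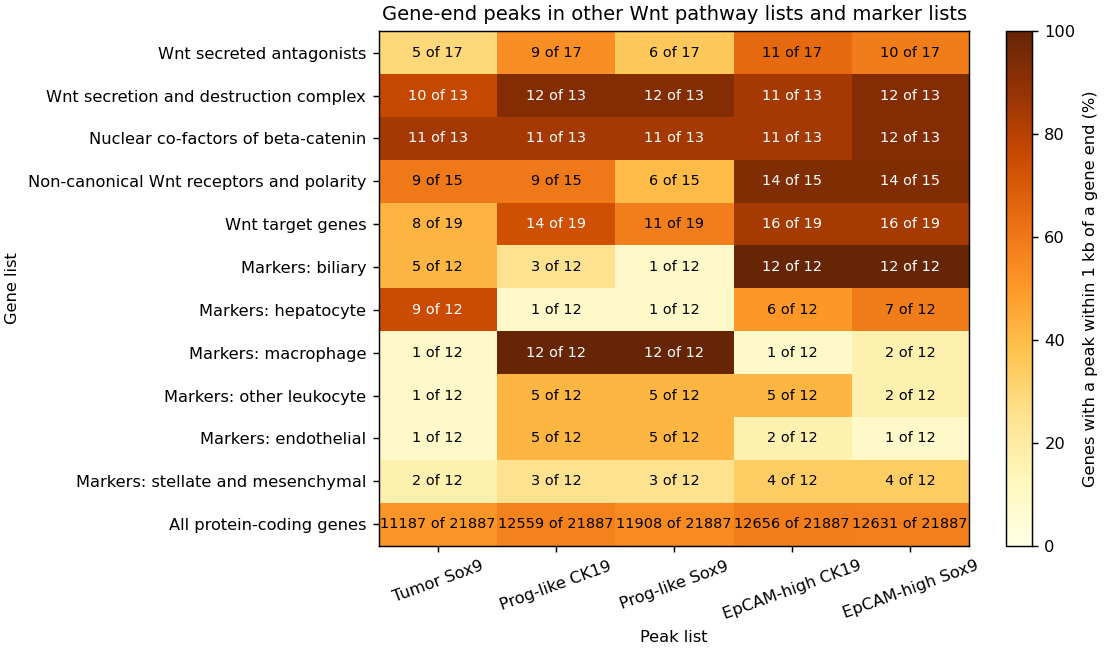
Number of genes with a peak within 1 kb of a gene end (cell text, of the genes in the list) and their share (%, colour) for 5 further Wnt pathway lists, 6 marker lists of 12 genes and all protein-coding genes (rows) in the 5 peak lists (columns). Polarity genes reach 14 of 15 in both EpCAM-high lists, macrophage markers 12 of 12 in both Prog-like lists and biliary markers 12 of 12 in both EpCAM-high lists.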

How the data were processed

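The 5 deposited tables are peak lists in the narrowPeak layout of MACS2. In that layout the authors give for each peak an integer score, a fold enrichment over background (a linear ratio), −log10 p and −log10 q values and the offset of the summit. Tools in the submitters' processing notes are Bowtie 1.1.2, deepTools, HOMER and MACS2, with build mm10 and no roles. For pooling of samples, read shifting and duplicate reads, the sources used here give nothing. The deposited −log10 values ranked peaks within their own list only, and equal-length lists kept the 39644 peaks with the highest −log10 p.

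Genes came from RefSeq GRCm38.p6 (the build of mm10), whose table used here gives no exons; strand came from the promoter windows of 32 of the 46 members. Windows were not used for Wnt5a, Wnt7b, Wnt8a, Wnt10a, Fzd2, Fzd3, Fzd6, Fzd8, Lrp5, Lrp6, Lgr5, Rspo2, Rspo3 and Znrf3. Overlaps of 1 bp counted. Counts used Python 3.11.15, pandas 2.3.3, NumPy 2.4.6, SciPy 1.17.1 and matplotlib 3.10.9, and were tested on simulated data.

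The members, the further lists and the tests were chosen with earlier results of these data known. Members were named by rule where a gene-end peak was in both lists of 1 kind and neither of the other, where Tumor Sox9 and EpCAM-high Sox9 differed, where a member had the most locus peaks of its role, or where it had none. From the further lists the 10 genes with the largest difference in summed locus peaks were named, among those with a gene-end peak in both lists of 1 kind and neither of the other. Counts of region kinds over all loci, of start patterns and of summed locus peaks were added after seeing the data. Other members given by value (Wnt1, Wnt5a, Wnt9b, Wnt10a, Fzd4, Lgr6, Rspo1, Znrf3, Rnf43, Axin2, Ctnnb1, Tcf7l2 and Lef1) were chosen after their values were seen. Alternatives were equal length, −log10 q of 5 or more, other windows and flanks, summits in place of peaks, starts alone and an overlap of 50%.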

Additional observations from a re-analysis of the deposited data

Results flagged for a closer look

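At 3 members the Prog-like lists had more locus peaks than the EpCAM-high lists in 1 set and fewer in the other, which drew attention to them. The difference was not tested, since each condition has 1 list. At Fzd4 the count was 3 higher in Prog-like CK19 than in EpCAM-high CK19 and differed by -2 between Prog-like Sox9 and EpCAM-high Sox9, a gap of 5 between the sets. At equal length both differences were -1. At Fzd5 the differences were 1 (CK19) and -1 (Sox9), a gap of 2, and both were 0 at equal length. At Rspo2 they were -1 (CK19) and 2 (Sox9), a gap of -3, and both were 0 at equal length.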

How the results depend on the processing

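Among the differences in members with a gene-end peak, none changed sign under the alternatives tried, except that the one between the EpCAM-high lists, 0 as deposited, took both signs. Summed locus peaks did: Prog-like CK19 minus EpCAM-high CK19 was 21 as deposited and -29 at equal length, and Tumor Sox9 minus Prog-like Sox9 was -22 and 34. At equal length, members with a gene-end peak came to 14 in Prog-like CK19 (23 as deposited), and locus peaks to 60 in Prog-like CK19 and 58 in the Prog-like Sox9 list (138 and 114). The difference in members with a gene-end peak became -15 for Prog-like CK19 minus EpCAM-high CK19 (-8 as deposited), -2 for Tumor Sox9 minus EpCAM-high Sox9 (-7), 10 for Tumor Sox9 minus Prog-like Sox9 (6), 0 for Prog-like CK19 minus Prog-like Sox9 (5) and 3 for EpCAM-high CK19 minus EpCAM-high Sox9 (0). The difference of -13 for Prog-like Sox9 minus EpCAM-high Sox9 stayed within 1.5 times under every alternative run on it. For Prog-like CK19 minus Prog-like Sox9 the difference was 3 with −log10 q of 5 or more, 3 with a 500 bp window and 2 at starts alone, and for EpCAM-high CK19 minus EpCAM-high Sox9 it was 1, -2 and -1 under these and -1 by summits. Starts alone, over 32 members, gave 13 members in Prog-like CK19 and 11 in the Prog-like Sox9 list. Flanks of 50 kb gave 187 locus peaks in Tumor Sox9, 272 in Prog-like CK19, 227 in the Prog-like Sox9 list, 227 in EpCAM-high CK19 and 272 in the EpCAM-high Sox9 list. Shared regions at Wnt loci were 85.2% between the Prog-like lists at equal length (63.3% as deposited) and 70% between the EpCAM-high lists with −log10 q of 5 or more (58.5%). Beyond what a shorter list or a wider window brings by construction, the cause was not tested. A 2500 bp window (11 values), gene bodies alone (5) and an overlap of 50% (6) moved no value by more than 1.5 times. No paired analysis was possible because each condition has 1 list and no value per sample, and for the same reason no replicate could be left out. Weak peaks missed at low depth cannot be told from closed chromatin.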
